A study of Mus musculus with 16 samples.

Results

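The endothelin system comprised 7 genes on these arrays: the ligand genes Edn1, Edn2 and Edn3, the receptor genes Ednra and Ednrb, and Ece1 and Ece2, which encode enzymes that cut the inactive precursors to active endothelins. They were chosen by name, through the RefSeq accession of each probe, and not by any measured value. They were read by 8 of the array's 55681 probes, and are 7 of the 20660 genes that its probes could be matched to. Each gene had 1 probe except Ednrb, which had 2 different probes, and the single Edn1 probe was printed in 10 spots, of which 8 to 10 were used on each array. All 8 probes were well above background on all 16 arrays, so all 7 genes passed the filter on dim probes through every group.

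RNA was measured in mice that carry the nm3342 mutation and in wild-type mice, at 1 month (P30) and at 1 year (P365), with 4 samples in each of the 4 groups. The labels give a C57Bl/6J strain background and male sex for all samples, and do not name the mutated gene or say whether mutants and controls were littermates. The series title presents nm3342 as a possible model of serous retinal detachment, the separation of the retina from the retinal pigment epithelium (RPE) by fluid. Retina and RPE were extracted together, and each sample was hybridised to 1 single-colour array. A level can therefore be assigned to neither tissue, and in such bulk RNA fewer cells of a type and less RNA per cell cannot be told apart. The p-values from limma, unless stated otherwise, rest on the spread between arrays of the same group, pooled over all 4 groups.

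Endothelins are short secreted peptides that act through 2 G-protein-coupled receptors. Edn1 is the main product of vascular endothelium and a strong constrictor of vessels. Edn3, with Ednrb, is needed for the migration and survival of pigment cells and enteric neurons that come from the neural crest. Ednra binds Edn1 and Edn2 far better than Edn3, and in vessels it sits on smooth muscle and pericytes, while Ednrb binds all of the ligands alike and is found on endothelium and on glia. In the retina, Edn2 is known as a gene that photoreceptors switch on when they are damaged, together with the cytokine Lif and with reactive changes in Müller glia.

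Levels are log2 values relative to the 75th percentile of the array's signal, so a level of 0 equals that percentile and a level of -1 lies below it by a factor of 2. The change between groups is the difference of mean levels with its standard error (SE) from limma. A gene was called where its p, adjusted by the Benjamini-Hochberg method over all 19022 genes tested, was under 0.05. Probes bind with different strength, so the levels of different genes were not compared.

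The stretches that precede the RefSeq start sites of Edn2, Edn3 and Ednra are shown because Edn2 had the largest change of the 7 genes and because Edn3 and Ednra followed 1 pattern across the groups. Each is 250 bases, read 5′ to 3′ on the gene's strand and ending at the base before the start site, in RefSeq sequence of build GRCm38.p6. They lie at chr4:120160956-120161205 on the + strand for Edn2, at chr2:174760369-174760618 on the + strand for Edn3 and at chr8:77724453-77724702 on the - strand for Ednra. Capitals mark matches to the motifs searched.
Edn2: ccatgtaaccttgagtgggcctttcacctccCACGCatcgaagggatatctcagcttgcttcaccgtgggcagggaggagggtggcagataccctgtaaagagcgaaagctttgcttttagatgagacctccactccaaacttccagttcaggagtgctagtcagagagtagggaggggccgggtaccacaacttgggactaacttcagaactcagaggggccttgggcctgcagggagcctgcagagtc
Edn3: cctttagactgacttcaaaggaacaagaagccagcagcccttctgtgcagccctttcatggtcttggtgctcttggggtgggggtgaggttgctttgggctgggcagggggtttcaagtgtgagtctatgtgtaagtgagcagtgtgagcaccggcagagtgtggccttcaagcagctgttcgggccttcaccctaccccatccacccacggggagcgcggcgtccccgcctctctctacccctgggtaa
Ednra: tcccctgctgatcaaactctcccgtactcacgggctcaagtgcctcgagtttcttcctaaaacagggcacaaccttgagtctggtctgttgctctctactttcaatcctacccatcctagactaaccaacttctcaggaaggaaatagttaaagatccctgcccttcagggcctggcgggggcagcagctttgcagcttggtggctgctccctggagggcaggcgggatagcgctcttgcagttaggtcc
The motifs, searched on both strands, were the TATA box TATAAA, the AP-1 site TGANTCA, the hypoxia-response cores ACGTG and GCGTG, the STAT site TTCNNNGAA, the Crx site TAATCC and the GC box GGGCGG. The letters of both hypoxia cores share their end, so their matches can overlap. The Edn2 stretch held 1 match, to the second hypoxia core read on the other strand and shown in capitals, 219 to 215 bases before the start. That core occurred in 28.2% of the 27025 promoter stretches of this length. The Edn3 and Ednra stretches held none of the 7 motifs. The shares of all stretches with a match were 13% for the TATA box, 6.87% for AP-1, 16.6% for the first hypoxia core, 7.18% for STAT, 6.38% for Crx and 32.9% for the GC box.

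Of the 7 genes, Edn2 was the only one called between mutant and wild type at 1 year, Ednra the only one called at 1 month, and Edn2, Edn3 and Ednra had genotype effects that differed between the ages. Edn2 was higher in the mutants at 1 year. Edn3 and Ednra ran the other way: their mutant levels lay above wild type at 1 month and below it at 1 year. Edn1, Ece1 and Ece2 had no call in any of the 5 contrasts.

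Counted over the 7 genes, 1 was called between the genotypes at 1 month, where 2.72% of all genes tested were called, and 1 at 1 year, where 0.857% were. For the difference between the genotype effects 3 of 7 were called, against 0.421% of all genes. With age 2 of 7 were called in the wild types (12.4% of all genes) and 2 of 7 in the mutants (6.7% of all genes). These age counts rest on few genes and are read beside those shares only. The median change of the 7 genes was 0.50 at 1 month and 0.03 at 1 year, against 0.02 and -0.01 over all genes.

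The groups did not overlap for 4 of 7 genes at 1 month (Edn1, Edn3, Ednra and Ece1), against 8.53% of all genes, and for 4 of 7 at 1 year (Edn2, Edn3, Ednra and Ednrb), against 7.83%. With age this held for 2 of 7 in the wild types (Edn3 and Ednra), against 18.9%, and for 3 of 7 in the mutants (Edn1, Edn2 and Ednrb), against 13.8%. Each of these gene-wise comparisons had the smallest p that 4 against 4 arrays allow in a two-sided exact permutation test, 0.0286, which was 0.0615 after Benjamini-Hochberg adjustment over the 28 tests made. The 1-month and 1-year genotype contrasts share no arrays, while each shares a group with the age contrasts.

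**Figure D1:**
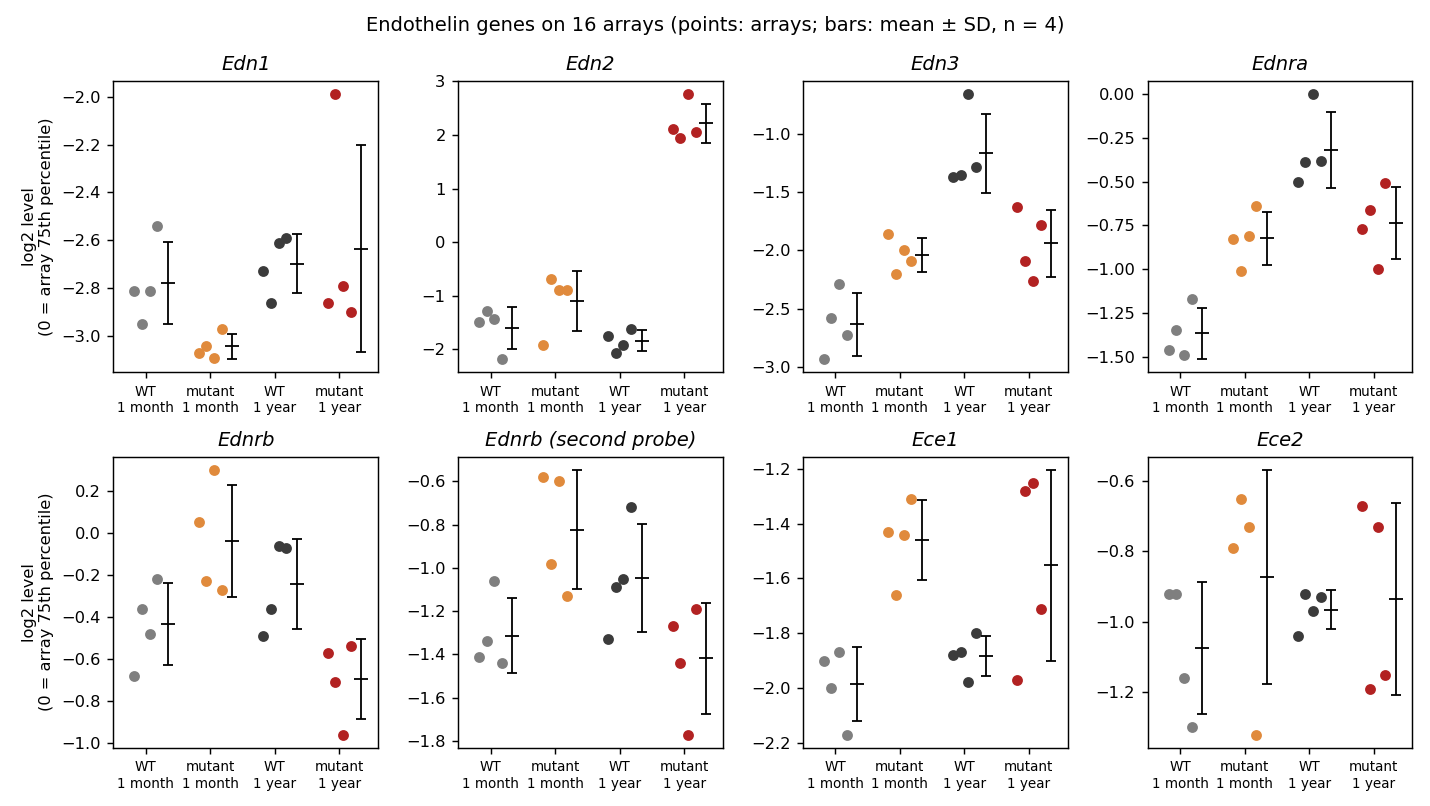
Log2 level of each endothelin probe (vertical axis, 0 is the 75th percentile of the array, a separate scale in each panel) on the 16 arrays by genotype and age. Points are arrays and bars are the mean ± SD of 4 arrays; the 4 mutant 1-year arrays of Edn2 sit between 1.94 and 2.76, and its other 12 arrays lie below 0.

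The 16 arrays had 82.1% to 89.6% of their non-control spots well above background, and the 75th percentile of their signal ran from 603 to 994. The labelled tissue was borne out by its markers: all 6 rod genes, and 5 of the 6 RPE genes listed, were above background on every array, and Best1 was not tested. On 3 arrays Xist and the Y-linked Ddx3y had a female pattern against their label: replicates 2 and 3 of the 1-month mutants, and replicate 1 of the 1-year mutants. Xist ran from -0.38 to -0.03 on these and from -8.61 to -5.68 on the other 13 arrays, and results of the endothelin genes that change without these 3 arrays are given both ways. Without them fewer genes were called over the whole array: 133 in place of 518 at 1 month, 78 in place of 163 at 1 year, 12 in place of 80 for the difference, 1812 in place of 2352 with age in the wild types and 275 in place of 1274 with age in the mutants (limma). The arrays lay on 2 slides, each with 2 arrays of every group. Lens markers, summed over 6 crystallin and fibre genes in units of the array's 75th percentile, ran from 262 to 413 in the 1-month wild types, 27.1 to 929 in the 1-month mutants, 0.86 to 10.4 in the 1-year wild types and 1.7 to 119 in the 1-year mutants. Their part in the results below was not tested.

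Among the ligands, Edn2 stood apart. Its levels on the 4 mutant 1-year arrays, replicates 1 to 4, were 2.11, 1.94, 2.76 and 2.05. On the 1-year wild-type arrays they were -1.76, -2.07, -1.92 and -1.62. The groups did not overlap, and the lowest mutant array lay above the highest wild-type array by more than the whole range within either group. The change at 1 year was 4.06 ± 0.27 (SE, n = 4 per group), a 16.6-fold difference, with an adjusted p of 8.01e-07 (limma). It was 4.34 on slide 1 alone, 3.77 on slide 2 alone, 4.06 with slide as a block and 4.09 without the 3 arrays with high Xist.

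At 1 month Edn2 showed no such separation. The mutant arrays, replicates 1 to 4, gave -1.93, -0.69, -0.90 and -0.89, and the wild-type arrays gave -1.50, -1.29, -1.44 and -2.18. Replicates 2 to 4 of the mutant lay above every wild-type array and replicate 1 lay within them, so the groups overlapped. The change was 0.50 ± 0.27, with a 95% interval from -0.07 to 1.06 and an adjusted p of 0.4 (limma). Without mutant replicate 1 it was 0.77 (adjusted p = 0.13), and without the 3 arrays with high Xist it was 0.19 (adjusted p = 0.932).

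The genotype effect on Edn2 was larger at 1 year than at 1 month by 3.56 ± 0.37, an 11.8-fold difference between the effects (limma, adjusted p = 0.000948). On each slide alone the value was as large but not called, at 3.74 on slide 1 (adjusted p = 0.251) and 3.38 on slide 2 (adjusted p = 0.287). Within the mutants, Edn2 rose from 1 month to 1 year by 3.32 ± 0.27, or 9.98-fold (adjusted p = 4.55e-06). Within the wild types its change with age was -0.24 ± 0.27 (95% interval -0.81 to 0.33, adjusted p = 0.598). In order of mean level, the groups ran from the 1-year wild types at -1.84 ± 0.20 (SD) through the 1-month wild types at -1.60 ± 0.40 and the 1-month mutants at -1.10 ± 0.56 to the 1-year mutants at 2.21 ± 0.37. The 3 lower means were neighbours whose arrays overlapped, and only the step to the 1-year mutants exceeded the spread.

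Markers of several cell types were read beside the Edn2 result, at 1 year unless stated otherwise. Of 6 rod genes, 1 was lower in the 1-year mutants (0.857% of all genes were called), Gnat1, the rod transducin subunit, by -0.33 ± 0.06 (limma, adjusted p = 0.0246). Without the 3 arrays with high Xist Gnat1 was not called (-0.34, adjusted p = 0.106), and it was called in 1 of the 8 fits that left out 1 array of these groups, the one without wild-type 1-year replicate 4. The summed rod level at 1 year was 555 to 622 in mutants, below the 686 to 717 of wild types. For the difference between the ages 1 of the 6 rod genes was called lower (0.421% of all genes), Gnat1, in 15 of 16 fits without 1 array. With age in the mutants 3 of the 6 fell (6.7% of all genes). Gnat1 and Nrl were called in all 8 such fits and Pde6b in 6. None of these rod calls held without the 3 arrays with high Xist. None of 6 Müller glia genes was called at 1 year, and their summed level was 86.7 to 95.8 in mutants and 84.1 to 97.2 in wild types. None of 4 genes of cornea and iris epithelium was called, with a median change of 0.87 and summed levels of 60.8 to 653 in mutants and 11.5 to 353 in wild types. None of the 6 lens genes was called either, but all 6 lay higher in the mutants, with a median of 2.30, and their summed levels were 1.7 to 119 in mutants and 0.86 to 10.4 in wild types. The part of rods, epithelium or lens in the Edn2 result was not tested.

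Edn3, the ligand of pigment cell development, had a different course. Its levels on replicates 1 to 4 were -2.93, -2.58, -2.29 and -2.73 in the 1-month wild types and -1.86, -2.20, -2.0 and -2.09 in the 1-month mutants. At 1 year they were -1.37, -1.35, -0.66 and -1.28 in the wild types and -1.63, -2.09, -2.26 and -1.78 in the mutants. At both ages the groups did not overlap, with all mutant arrays above all wild-type arrays at 1 month and all below them at 1 year.

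Neither genotype change of Edn3 was called on its own: it was 0.59 ± 0.18 at 1 month (limma, adjusted p = 0.115) and -0.77 ± 0.18 at 1 year (adjusted p = 0.0658). The difference between the 2 effects, -1.37 ± 0.26, was called (adjusted p = 0.0323). In the wild types Edn3 rose with age by 1.46 ± 0.18, a 2.76-fold change (adjusted p = 9.75e-05), which was 1.74 on slide 1 alone and 1.19 on slide 2 alone and was called on both. Wild-type 1-year replicate 3 lay above the other 3 arrays of its group, and without it the change was 1.30 (adjusted p = 0.000202). In the mutants the change with age was 0.10 ± 0.18 (95% interval -0.29 to 0.49, adjusted p = 0.808).

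In order of mean Edn3 level, the groups ran from the 1-month wild types at -2.63 ± 0.27 (SD) through the 1-month mutants at -2.04 ± 0.15 and the 1-year mutants at -1.94 ± 0.29 to the 1-year wild types at -1.17 ± 0.34. The 2 mutant groups were neighbours and overlapped. The call of the difference was lost when any of 8 of the 16 arrays was left out: mutant 1-month replicate 1 or 3, mutant 1-year replicate 2 or 3, wild-type 1-month replicate 1, 2 or 4, or wild-type 1-year replicate 1. Over all 16 such fits the difference ran from -1.48 to -1.20, and the adjusted p from 0.0318 to 0.083. It was -1.77 on slide 1 alone (adjusted p = 0.772) and -0.96 on slide 2 alone (adjusted p = 0.554), and -1.53 without the 3 arrays with high Xist (adjusted p = 0.126).

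Edn1, the vascular ligand, had no call, although 1 array stood apart. Its levels on replicates 1 to 4 were -2.81, -2.95, -2.81 and -2.54 in the 1-month wild types and -3.07, -3.04, -3.09 and -2.97 in the 1-month mutants. At 1 year they were -2.73, -2.86, -2.61 and -2.59 in the wild types and -2.86, -1.99, -2.79 and -2.90 in the mutants. The 1-month mutants lay below all 1-month wild types and all 1-year mutants, and mutant 1-year replicate 2 lay above every other array.

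The Edn1 change was -0.26 ± 0.16 at 1 month (95% interval -0.62 to 0.09, limma adjusted p = 0.481) and 0.06 ± 0.16 at 1 year (95% interval -0.29 to 0.42, adjusted p = 0.922). Within the mutants the change with age was 0.41 ± 0.16 (adjusted p = 0.172), and 0.19 without mutant 1-year replicate 2 (adjusted p = 0.361). On that array the 10 spots of the probe ran from -2.14 to -1.84, above the highest Edn1 spot of each other array, with an SD between spots of 0.10. The high value was thus shared by all spots of the array. The same array had the highest summed levels of the cornea and iris genes (653, next 353) and of 4 skeletal muscle genes (99.8, next 72.1). It also had the lowest summed level of 5 ganglion cell genes (32.1, next 44.7). Its summed endothelial level, 13.3, lay within the range of the other arrays. The part of the tissue mixture in this Edn1 value was not tested.

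Of the receptors, Ednra followed the course of Edn3. Its levels on replicates 1 to 4 were -1.46, -1.35, -1.49 and -1.17 in the 1-month wild types and -0.83, -1.01, -0.81 and -0.64 in the 1-month mutants. At 1 year they were -0.50, -0.39, 0.00 and -0.38 in the wild types and -0.77, -0.66, -1.0 and -0.51 in the mutants. All mutant arrays lay above all wild-type arrays at 1 month and below them at 1 year, where the nearest arrays of the 2 groups were at -0.51 and -0.50.

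Ednra was higher in the 1-month mutants by 0.55 ± 0.13, a 1.46-fold change (limma, adjusted p = 0.0373). That call was lost when mutant replicate 1, 3 or 4 or wild-type replicate 1, 2 or 3 was left out, with changes between 0.49 and 0.55 and adjusted p between 0.0552 and 0.11. The change was 0.58 on slide 1 alone (adjusted p = 0.671), 0.51 on slide 2 alone (adjusted p = 0.377) and 0.63 without the 3 arrays with high Xist (adjusted p = 0.152). At 1 year the change was -0.42 ± 0.13 and was not called (adjusted p = 0.174).

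The difference between the 2 genotype effects on Ednra was -0.96 ± 0.18 (limma, adjusted p = 0.0323). It was called in 6 of the 16 fits that left out 1 array, and not without mutant 1-month replicate 1 or 3, mutant 1-year replicate 1, 2 or 3, wild-type 1-month replicate 1, 2 or 3, or wild-type 1-year replicate 2 or 3, over a range of -1.04 to -0.86. It was -1.22 on slide 1 alone and -0.71 on slide 2 alone, not called on either, and -1.04 without the 3 arrays with high Xist (adjusted p = 0.163). In the wild types Ednra rose with age by 1.05 ± 0.13, a 2.07-fold change (adjusted p = 8.47e-05), which was 1.21 on slide 1 alone (adjusted p = 0.066) and 0.89 on slide 2 alone (adjusted p = 0.0378). In the mutants the change with age was 0.09 ± 0.13 (adjusted p = 0.748). Its group means ran in the same order as those of Edn3: -1.37 ± 0.14 (SD) in the 1-month wild types, -0.82 ± 0.15 in the 1-month mutants, -0.74 ± 0.20 in the mutants at 1 year and -0.32 ± 0.22 in the wild types of that age.

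**Figure D2:**
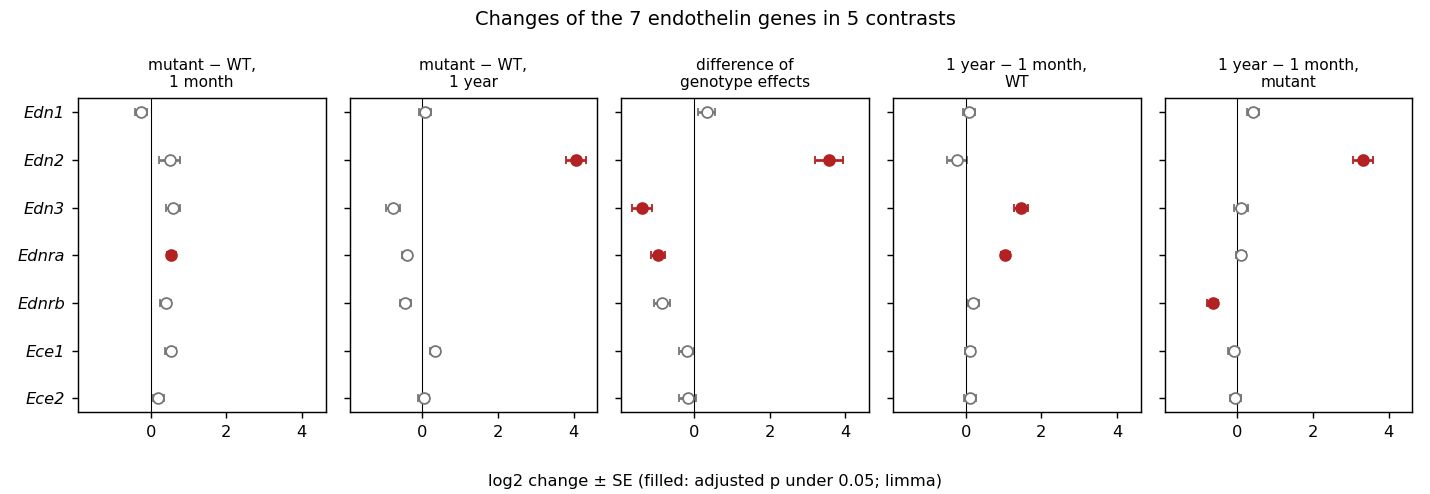
Log2 change ± SE (horizontal axis) of the 7 endothelin genes (vertical axis) in the 5 contrasts, from limma with 4 arrays per group; filled points were called at an adjusted p under 0.05. Edn2 lies at 4.06 for genotype at 1 year and 3.32 for age in the mutants, while Edn3 and Ednra lie at 1.46 and 1.05 for age in the wild types.

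Some pigment cell markers had calls in the contrasts in which Edn3 or Ednra had them. Of 6 melanocyte and pigment genes, 3 were higher in the 1-month mutants (Tyr, Tyrp1 and Pmel, where 2.72% of all genes were called) and none was called at 1 year. The genotype effect differed between ages for 1 (0.421% of all genes), Tyrp1, a melanosome enzyme, by -1.58 ± 0.29 (limma, adjusted p = 0.0305). Of the same genes 3 rose with age in the wild types (Tyrp1, Pmel and Sox10, against 12.4% of all genes). With age in the mutants 2 fell (Tyr and Pmel, against 6.7% of all genes), where neither Edn3 nor Ednra was called. Without the 3 arrays with high Xist 1 was called at 1 month, Pmel (1.22, adjusted p = 0.0467), none for the difference and none with age in the mutants, while the 3 with age in the wild types were called again. Their summed level was 104 to 183 in the 1-month wild types, 181 to 267 in the 1-month mutants, 195 to 266 in the 1-year wild types and 128 to 184 in the 1-year mutants. All 6 genes were above background on all 16 arrays. With 1 array left out at a time, the 1-month calls held in 1 of 8 fits for Tyr and in 3 each for Tyrp1 and Pmel. The Tyrp1 difference was called in 9 of 16 fits. With age in the wild types Tyrp1 and Sox10 were called in all 8 fits and Pmel in 2. With age in the mutants Tyr and Pmel were each called in 2 of 8.

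RPE markers gave 2 of 5 higher at 1 month (Rdh5 and Ttr, where 2.72% of all genes were called) and none at 1 year. With 1 array left out Rdh5 was called in 3 of 8 fits and Ttr in 5. With age in the wild types all 5 were positive, with a median of 0.49, and 1 was called (12.4% of all genes), Ttr. That call held in all 8 fits that left out 1 array and without the 3 arrays with high Xist (0.62, limma adjusted p = 0.0335). None of the 5 was called for the difference between the ages (median -0.6) or with age in the mutants (median -0.1), and none was positive in either. No RPE or fibroblast gene was called by genotype at either age without the 3 arrays with high Xist. The summed level of the RPE genes was 84.2 to 122 in the 1-month wild types, 140 to 187 in the 1-month mutants, 121 to 178 in the 1-year wild types and 129 to 173 in the 1-year mutants. Of 5 fibroblast genes, 1 was higher at 1 month (2.72% of all genes were called), Lum, a proteoglycan of cornea and sclera, by 1.17 ± 0.27 (limma, adjusted p = 0.0322). That call held in 3 of the 8 fits that left out 1 array. The summed level of the fibroblast genes was 93.7 to 135, 140 to 205, 144 to 254 and 90.5 to 191 in the same order of groups. The mean log2 level of the fibroblast list did not follow the order of Edn3 and Ednra: it was highest in the 1-month mutants, at 3.99, with 3.66 in the 1-year wild types, 3.47 in the 1-year mutants and the lowest value in the 1-month wild types. The RPE and pigment lists followed that order in part. Their means were 3.94 and 3.37 in the 1-month mutants, above 3.82 and 2.97 in the 1-year mutants. The median change of the fibroblast list by genotype was 1.09 at 1 month and -0.05 at 1 year, with -1.12 for the difference between the ages. With age in the wild types the median was -0.07, but 2 of the 5 rose, Lum and Dcn (12.4% of all genes were called). Each was called in all 8 fits that left out 1 array. With age in the mutants 2 of the 5 fell, Col1a1 and Col1a2 (6.7% of all genes). With 1 array left out Col1a1 was called in all 8 fits and Col1a2 in 1. Without the 3 arrays with high Xist 2 were called higher in the wild types and none in the mutants. None of 6 mural cell genes was called by genotype at either age. With age 1 of the 6 rose in each genotype, Rgs5, where 12.4% of all genes were called in the wild types and 6.7% in the mutants. The median change of the mural list with age was 0.3 in the wild types and 0.17 in the mutants. Without the 3 arrays with high Xist 1 was called with age in the wild types and none in the mutants. Lens markers, given above, differed far more between the ages than these lists, with 5 of 6 lower at 1 year in the wild types (12.4% of all genes were called). The part of pigmented, stromal, mural and lens cells in the Edn3 and Ednra results was not tested.

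**Figure D3:**
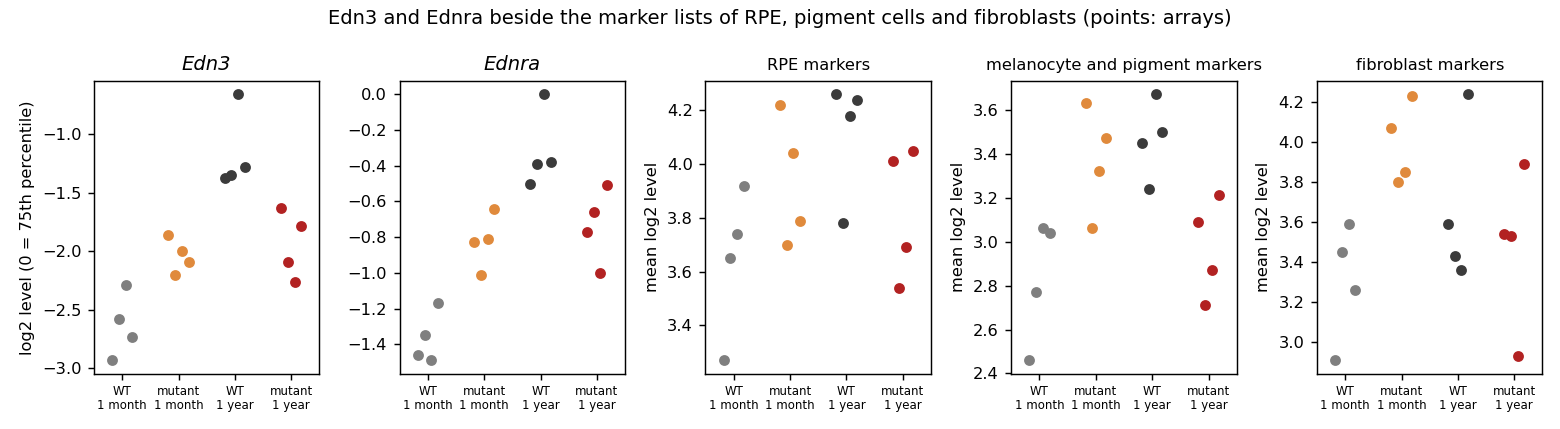
Log2 level of Edn3 and Ednra and mean log2 level of the RPE, pigment and fibroblast marker lists (vertical axes, 0 is the array's 75th percentile) on the 16 arrays; points are arrays, in 4 groups of 4. By group means Edn3, Ednra and the pigment and RPE lists are lowest in the 1-month wild types and highest in the 1-year wild types. In order of 1-month wild types, 1-month mutants, 1-year wild types and 1-year mutants, the pigment means are 2.83, 3.37, 3.46 and 2.97. In the same order the RPE means are 3.64, 3.94, 4.11 and 3.82.

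Ednrb, the receptor of glia and endothelium, was measured by 2 probes. On the brighter one, replicates 1 to 4 gave -0.68, -0.36, -0.48 and -0.22 in the 1-month wild types and 0.05, -0.23, 0.30 and -0.27 in the 1-month mutants. At 1 year they gave -0.49, -0.36, -0.06 and -0.07 in the wild types and -0.57, -0.71, -0.96 and -0.54 in the mutants. All 1-year mutant arrays lay below all arrays of the 1-year wild types and of the 1-month mutants, and the groups overlapped at 1 month.

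Within the mutants Ednrb fell with age by 0.66 ± 0.15 on the log2 scale (limma, adjusted p = 0.0159). The genotype changes were not called, at 0.40 ± 0.15 at 1 month (adjusted p = 0.213) and -0.45 ± 0.15 at 1 year (adjusted p = 0.22), nor was their difference of -0.85 ± 0.21 (adjusted p = 0.103). The age change in the wild types was 0.19 ± 0.15 (95% interval -0.13 to 0.51). The call with age in the mutants was lost without mutant 1-month replicate 1 (-0.63, adjusted p = 0.0502) or 3 (-0.54, adjusted p = 0.0575) or mutant 1-year replicate 3 (-0.57, adjusted p = 0.0525). It was also lost on slide 1 alone (-0.59, adjusted p = 0.299), on slide 2 alone (-0.73, adjusted p = 0.159) and without the 3 arrays with high Xist (-0.63, adjusted p = 0.162).

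The second Ednrb probe gave like differences. In a fit of all probes its change with age in the mutants was -0.59 ± 0.17 (limma, adjusted p = 0.0798), beside -0.66 ± 0.15 (adjusted p = 0.0322) for the brighter probe. Its genotype changes were 0.49 ± 0.17 at 1 month and -0.37 ± 0.17 at 1 year, against 0.40 and -0.45 for the brighter probe. Both probes thus had the same sign in each of these contrasts, and the second was not called in any. That fit adjusts over more tests, and in it Ednra at 1 month (0.55 ± 0.13, adjusted p = 0.0696) and the differences between ages of Ednra (-0.96 ± 0.19, adjusted p = 0.0782) and Edn3 (-1.37 ± 0.26, adjusted p = 0.0726) were not called. Edn2 was called in it at 1 year (adjusted p = 1.25e-06), for the difference (0.00192) and with age in the mutants (8.79e-06), as were Edn3 (0.000199) and Ednra (0.000198) with age in the wild types. In order of mean level on the brighter probe, the 1-year mutants at -0.70 ± 0.19 (SD) were followed by the 1-month wild types at -0.44 ± 0.19, the 1-year wild types at -0.24 ± 0.21 and the 1-month mutants at -0.04 ± 0.27, and each pair of neighbours overlapped.

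Of the converting enzymes, Ece1, the main enzyme that cuts the ligand precursors, lay higher in the 1-month mutants without passing the test. Its levels on replicates 1 to 4 were -1.43, -1.66, -1.44 and -1.31 in the 1-month mutants and -1.90, -2.0, -1.87 and -2.17 in the 1-month wild types. At 1 year they were -1.97, -1.28, -1.25 and -1.71 in the mutants and -1.88, -1.87, -1.98 and -1.80 in the wild types. The groups were apart at 1 month and overlapped at 1 year, where 3 of 4 mutant arrays lay above every wild-type array.

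The Ece1 change was 0.53 ± 0.14 at 1 month (limma, adjusted p = 0.0625) and 0.33 ± 0.14 at 1 year (adjusted p = 0.384). The 1-month change was called in 4 of 15 other settings: with quantile normalization (0.58, adjusted p = 0.0273), in the deposited matrix (0.58, adjusted p = 0.0275), with normexp background correction (0.45, adjusted p = 0.0391) and with the sex pattern as a covariate (0.70, adjusted p = 0.02). Of 6 endothelial genes 1 was higher at both ages, where 2.72% and 0.857% of all genes were called. It was Kdr, a receptor for vascular endothelial growth factor, by 0.68 ± 0.09 at 1 month (limma, adjusted p = 0.00138) and 0.71 ± 0.09 at 1 year (adjusted p = 0.00153). The summed endothelial level was 12.1 to 13.5 in mutants and 8.02 to 9.29 in wild types at 1 month, and 12.4 to 15.2 and 8.61 to 10.5 at 1 year. The mean log2 level of the list did not overlap at 1 month, at -0.59 to -0.2 in mutants and -0.87 to -0.61 in wild types. It overlapped at 1 year, at -0.62 to -0.41 and -0.69 to -0.32. The median change was 0.26 at 1 month, with 4 of 6 genes positive, and -0.07 at 1 year, with 2 of 6 positive. The part of endothelium in the Ece1 values was not tested.

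Ece2, the related enzyme of nervous and endocrine tissue, spread as widely within groups as between them. Its levels ran from -1.32 to -0.65 in the 1-month mutants, -1.30 to -0.92 in the 1-month wild types, -1.04 to -0.92 in the 1-year wild types and -1.19 to -0.67 in the 1-year mutants. The groups overlapped in every comparison. Its change was 0.20 ± 0.15 at 1 month (95% interval -0.13 to 0.53, limma adjusted p = 0.589) and 0.03 ± 0.15 at 1 year (95% interval -0.30 to 0.36, adjusted p = 0.97).

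Other genes of the pathway were read from lists by role. None of 9 tested genes for endothelin processing and breakdown was called by genotype at either age (of 10 listed, Kel was not tested), with median changes of 0.03 and -0.03. Furin, a protease that makes the first cuts in the precursors, had changes of 0.03 ± 0.06 at 1 month and -0.03 ± 0.06 at 1 year. With age 1 of the 9 was called higher and 1 lower in each genotype, where 12.4% of all genes were called in the wild types and 6.7% in the mutants. Ecel1, a protease of the same family as Ece1, rose by 1.17 ± 0.19 in wild types (limma, adjusted p = 0.00105) and 1.16 ± 0.19 in mutants (adjusted p = 0.00195). Pcsk5, a proprotein convertase, fell by 0.54 ± 0.13 in wild types (adjusted p = 0.0154) and 0.51 ± 0.13 in mutants (adjusted p = 0.0356).

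None of 17 genes for signalling below the receptors was called by genotype at either age. Gnaq and Gna11, the G proteins through which both receptors raise calcium, had changes of 0.14 ± 0.08 and 0.04 ± 0.11 at 1 month and of 0.02 ± 0.08 and -0.01 ± 0.11 at 1 year. With age 2 of the 17 were called in each genotype, against 12.4% of all genes in the wild types and 6.7% in the mutants. Plcb3, a phospholipase, rose by 0.50 ± 0.15 in wild types (limma, adjusted p = 0.0451) and 0.58 ± 0.15 in mutants (adjusted p = 0.0369), and Itpr2, a calcium release channel, by 0.46 ± 0.11 in each (adjusted p = 0.0116 and 0.0192). Without the 3 arrays with high Xist the age calls of Pcsk5, Plcb3 and Itpr2 in the mutants and of Plcb3 in the wild types were lost (adjusted p from 0.0726 to 0.309). With 1 array left out, Plcb3 was called in 1 of 8 fits in the wild types and in 3 of 8 in the mutants. In the same order Pcsk5 was called in 7 and 3, Itpr2 in 8 and 5 and Ecel1 in 8 and 8.

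Among 12 genes that act on endothelin transcription, 1 was called by genotype at each age, against 2.72% of all genes at 1 month and 0.857% at 1 year. Egln1, the oxygen sensor that marks hypoxia-inducible factors for breakdown, was lower in the mutants by -1.22 ± 0.17 at 1 month (limma, adjusted p = 0.00159) and -1.67 ± 0.17 at 1 year (adjusted p = 0.000136), and it was called at both ages without the 3 arrays with high Xist. Its levels on replicates 1 to 4 were -2.66, -3.13, -2.82 and -3.46 in the 1-month mutants and -2.07, -1.41, -1.80 and -1.91 in the 1-month wild types, with no overlap. Hif1a and Epas1, the factors it acts on, had changes of -0.10 ± 0.14 and 0.10 ± 0.12 at 1 month and of 0.01 ± 0.14 and 0.13 ± 0.12 at 1 year. The Egln1 difference was thus present at both ages, while that of Edn2 was called only at 1 year, and their relation was not tested.

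The genes of the photoreceptor stress and Müller glia response, in which Edn2 is known to take part, had calls at 1 year. Of 14 genes 4 were higher in the 1-year mutants, where 0.857% of all genes were called: Lcn2, an iron-binding acute-phase protein, by 2.68 ± 0.30 (limma, adjusted p = 0.000379), Osmr, a cytokine receptor, by 0.62 ± 0.11 (adjusted p = 0.0115), Socs3, a feedback inhibitor of cytokine signalling, by 0.60 ± 0.13 (adjusted p = 0.0466), and Stat3, the transcription factor of that pathway, by 0.56 ± 0.09 (adjusted p = 0.00504). The median of the list was 0.58, against -0.01 over all genes. At 1 month 1 was called (2.72% of all genes), Cebpd, a transcription factor of inflammation, which was lower in the mutants by -1.21 ± 0.30 (adjusted p = 0.0446), and the median was 0.10. Without the 3 arrays with high Xist Lcn2 (2.75, adjusted p = 0.00642), Stat3 (0.60, adjusted p = 0.0233) and Osmr (0.66, adjusted p = 0.0469) were called at 1 year, while Socs3 (0.57, adjusted p = 0.193) and, at 1 month, Cebpd (-1.38, adjusted p = 0.191) were not. With 1 array left out at a time, Lcn2 and Stat3 were called in all 8 fits at 1 year, Osmr in 7 (not without wild-type replicate 2, adjusted p = 0.0527), Socs3 in 2 (those without mutant replicate 2 or wild-type replicate 3), and Cebpd at 1 month in 1 (that without wild-type replicate 1).

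Lif, the cytokine that photoreceptor injury is known to induce in Müller glia, was not among them. Its change was 0.22 ± 0.15 at 1 month (limma, adjusted p = 0.514) and -0.46 ± 0.15 at 1 year (adjusted p = 0.195), opposite in sign to that of Edn2 at 1 year. Gfap, the intermediate filament of reactive glia, had a change of -0.63 ± 0.26 at 1 month (adjusted p = 0.263) and 1.14 ± 0.26 at 1 year (adjusted p = 0.0577). As for Edn2, the genotype effects on Lcn2 and Cebpd differed between the ages and were higher at 1 year, by 3.33 ± 0.43 (adjusted p = 0.00387) and 2.08 ± 0.42 (adjusted p = 0.0483). Neither difference was called without the 3 arrays with high Xist (3.38, adjusted p = 0.0699, and 2.21, adjusted p = 0.203), and with 1 array left out that of Lcn2 was called in all 16 fits and that of Cebpd in 3.

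Microglia and macrophage markers had calls in both genotype contrasts. Of 5 tested (Cd68 was not), 2 were higher in the 1-month mutants, where 2.72% of all genes were called: Aif1, a calcium-binding protein of these cells, by 1.03 ± 0.13 (limma, adjusted p = 0.000685), and Csf1r, their growth factor receptor, by 0.73 ± 0.09 (adjusted p = 0.000581). At 1 year 1 was higher (0.857% of all genes were called), Cx3cr1, a chemokine receptor, by 0.89 ± 0.19 (adjusted p = 0.0497), which was not called without the 3 arrays with high Xist (adjusted p = 0.12). Cx3cr1 was called in 2 of the 8 fits that left out 1 array. The median change of the list was 0.73 at 1 month and 0.34 at 1 year. The summed level overlapped between the genotypes at both ages, at 92.6 to 153 in mutants and 92.9 to 176 in wild types at 1 month and 89.2 to 130 and 92.1 to 127 at 1 year. The mean log2 level of the list did not overlap at 1 month, at 1.18 to 1.29 in mutants and 0.71 to 0.82 in wild types, and did at 1 year, at 1.54 to 1.67 and 0.95 to 1.69. The part of these cells in the Edn2 and stress list results was not tested.

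The stress list also had calls with age, where 12.4% of all genes were called in the wild types and 6.7% in the mutants. In the wild types 6 of its 14 genes rose with age (Socs3, Il6st, Osmr, Serpina3n, Bcl3 and Timp1) and 1, Gfap, fell by 1.09 ± 0.26 on the log2 scale (limma, adjusted p = 0.0131). In the mutants 8 rose (Stat3, Socs3, Osmr, Serpina3n, Bcl3, Cebpd, Lcn2 and Timp1), with a median of 0.86 against -0.05 over all genes. Lcn2, like Edn2, rose with age in the mutants, by 3.40 ± 0.30 (adjusted p = 9.94e-06), and had a change of 0.07 ± 0.30 in the wild types (adjusted p = 0.911).

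**Figure D4:**
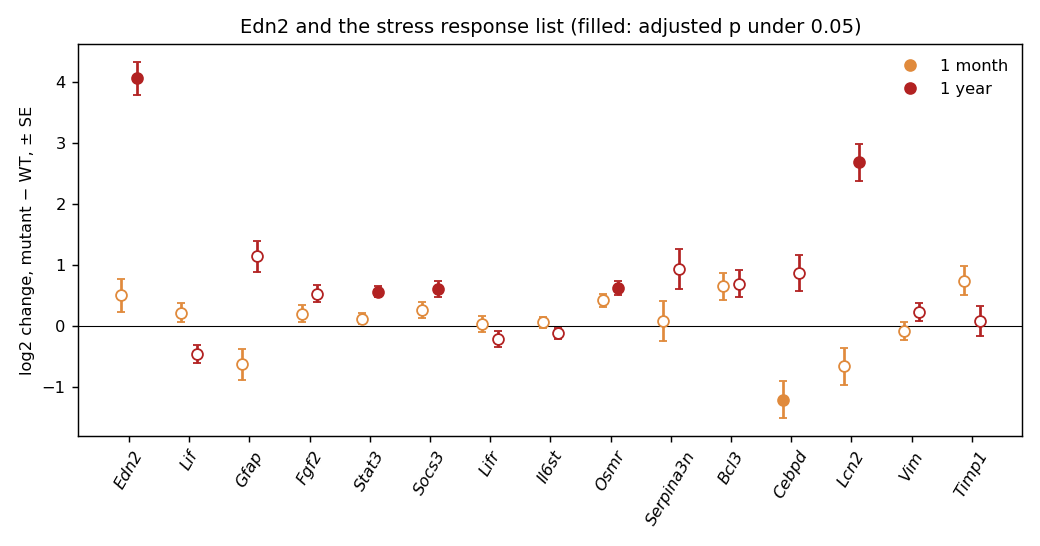
Log2 change, mutant minus wild type, ± SE (vertical axis) of Edn2 and the 14 genes of the stress response list (horizontal axis) at 1 month (orange) and 1 year (red), from limma with 4 arrays per group; filled points were called. At 1 year Edn2 at 4.06 and Lcn2 at 2.68 lie above the rest of the list, while Lif lies at -0.46.

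The genes whose levels followed each endothelin gene most closely over the 16 arrays were taken from 17215 named genes by Pearson's r, which is a description of arrays that share groups, slides and tissue mixture. For Edn2 they were Tnnt2 (r = 0.961), Lalba (0.951), Mctp1 (0.946), Calca (0.94), Prag1 (0.936) and Nudt6 (0.925). Over the 12 arrays without the 1-year mutants the values were 0.813 for Tnnt2, 0.659 for Lalba, 0.506 for Mctp1, 0.0283 for Calca, 0.344 for Prag1 and -0.119 for Nudt6. With each group's mean removed, r was 0.757 for Tnnt2, 0.546 for Prag1, 0.338 for Nudt6, 0.262 for Calca, 0.256 for Lalba and 0.116 for Mctp1. The likeness to Edn2 thus rested largely on differences between groups for Lalba, Mctp1, Calca and Nudt6, and least so for Tnnt2, a cardiac-type troponin. Calca, the gene of calcitonin and its related neuropeptide, had changes of 2.94 at 1 year and -0.55 at 1 month.

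For Edn3 the closest genes were Adcy7 (r = 0.937), Hpse (0.916) and Slco1c1 (0.913), and for Ednra Adgre5 (0.957), Adcy7 (0.949) and Clic4 (0.947). Adcy7, an adenylyl cyclase, was thus shared by both, with changes of 0.72 at 1 month, -0.89 at 1 year and 1.86 with age in the wild types. For Ednrb they were Ssh1 (r = 0.864), Gnat3 (0.841) and Fam160a1 (0.841), and for Edn1 Il20rb (0.879), Rhob (0.837) and Slc35f2 (0.828). For Ece1 they were Pfn1 (r = 0.81), Galnt2 (0.802) and Slc25a35 (0.797), and for Ece2 Katnal1 (0.88), Magee1 (0.856) and Sncb (0.851).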

How the data were processed

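RNA of retina and RPE was hybridised to 16 single-colour Agilent arrays, 1 per sample. Per the file headers, Agilent Feature Extraction 11.0.1.1 gave each spot a fluorescence intensity with background removed and spatial trend corrected, with the median intensity of the spot and its local background and marks for outliers and signal well above background. A log2 matrix deposited by the authors, quantile normalized to judge by its values, served as an alternative.

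From the scanner files, log2 of the processed intensity was taken relative to the array's 75th percentile over non-control spots, outlier spots were left out and spots of a probe were averaged. Accessions were named through the supplied RefSeq gene table (GRCm38.p6). A probe was kept if 4 or more of the 16 arrays marked it well above background, and the brightest probe stood for a gene, which gave 19022 genes. limma 3.58.1 (R 4.3.3) fitted 4 group means over all 16 arrays, two-sided, with Benjamini-Hochberg adjustment over all genes. The fit was tested on simulated data. Log2 changes carry the model's SE and group means carry the SD. The number of arrays limits the precision.

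All 7 genes and all their probes are described. Of each list other than the marker lists, the first 2 members and every member called in a contrast are named. Likeness was ranked without clone, RIKEN, Gm, LOC and numbered olfactory receptor names, 6 genes for Edn2 and 3 for each other gene. In the marker lists only some of the called genes are named, so the names given there are not a full set. Called markers left out above include Rlbp1, Emcn and Acta1. The genes and lists were chosen with earlier results of these data known. Alternatives were another normalization, background correction and filter, the mean of a gene's probes, limma-trend, slide, array row, replicate number and sex pattern in the model, each slide alone, fewer groups, and each array left out. The normexp correction used median spot signals (offset 50), because mean signals were not used here. The labels give no batch, and slides come from the file headers. Promoter stretches are RefSeq's.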

Additional observations from a re-analysis of the deposited data

Results flagged for a closer look

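In 32 sets of 4 arrays (8 probes in 4 groups), 3 had 1 array far from the others by Dixon's limit for 4 values, a limit that chance passes in about 5% of sets. Edn1 on mutant 1-year replicate 2 was at -1.99, with a gap to the nearest array of 0.886 of the group's range. Edn2 on mutant 1-month replicate 1 was at -1.93 (0.83 of the range), and Edn3 on wild-type 1-year replicate 3 was at -0.66 (0.868 of the range). The 3 arrays are different ones, and none of them is among those with high Xist.

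The genotype effect differed between 1 year and 1 month, by limma's test of the difference, for 3 endothelin genes and 2 genes of the stress response list. The 1-year effect was higher than the 1-month effect by 3.56 for Edn2, 3.33 for Lcn2 and 2.08 for Cebpd. The difference was -1.37 for Edn3 and -0.96 for Ednra, whose mutant arrays lay on opposite sides of the wild-type arrays at the 2 ages.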

How the results depend on the processing

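The Edn2 change at 1 year was called in all 15 other settings (3.74 to 4.34) and with each array left out (3.87 to 4.15), and its rise with age in the mutants likewise (3.12 to 3.66 and 3.04 to 3.46). Its difference between ages was called in 12 of 14 other settings and all 16 fits without 1 array (3.28 to 3.75), but not on slide 1 alone (3.74, adjusted p = 0.251) or slide 2 alone (3.38, adjusted p = 0.287), fits of 2 arrays per group. The wild-type age change was called in all 15 for Edn3 and in 14 for Ednra, and with each array left out for both. Ednra at 1 month was called in 7 of 15 settings, the difference between ages in 6 of 14 for Edn3 and 10 of 14 for Ednra, and Ednrb with age in the mutants in 11 of 15. The cause of these losses was not tested.

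The number of the 7 genes called at 1 month was 2 with quantile normalization and in the deposited matrix, and 0 on each slide alone, with array row as a covariate, with the replicate block, without the 3 arrays with high Xist and in the fit of the 2 groups alone (0 to 1 without 1 array). For the difference between ages it was 0 on each slide alone, 1 with the replicate block and 1 without the 3 arrays (1 to 3 without 1 array), and a fit of fewer groups gives no other value. With age it was 1 in the wild types on slide 1 alone, and 1 in the mutants on each slide alone, without the 3 arrays and in the 2 groups alone (1 to 2 without 1 array).

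Over all genes, the count called ran from 1 to 588 at 1 month (518 in the model reported), 10 to 216 at 1 year (163), 0 to 112 for the difference (80), 189 to 2674 with age in wild types (2352) and 37 to 1370 in mutants (1274), lowest on 1 slide alone; with 1 array left out it ran from 227 to 931, 84 to 308, 33 to 195, 1513 to 2187 and 784 to 1924. For the difference, limma called 0 genes on slide 2 alone and 1 on slide 1 alone. Replicate numbers did not pair the arrays: of 24 pairs with the same number 5 correlated above 0.1 (-0.535 to 0.304), and 2 of 16 arrays correlated best with their own number. With the replicate block the counts were 311 at 1 month, 96 at 1 year and 43 for the difference, and Ednra at 1 month had an adjusted p of 0.0598, with 0.0679 for its difference between ages and 0.0806 for that of Edn3.

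Changes of sign were limited to values never called. On slide 1 alone Ece2 was -0.07 at 1 month, -0.02 at 1 year, 0.05 for the difference, -0.03 with age in wild types and 0.03 in mutants, Ece1 was 0.19 for the difference and 0.22 with age in mutants, and Edn3 and Ednra with age in mutants were -0.03 and -0.01. On slide 2 alone Edn1 was -0.22 and Ece1 0 at 1 year, and Edn2 with age in wild types was 0.12. With the sex pattern as a covariate, and without the 3 arrays, Ece2 was -0.06 at 1 year and 0.03 with age in mutants; without the 3 arrays Edn3 with age in mutants was -0.07. With normexp Edn1 with age in wild types was -0.02. Without 1 array, values ran from -0.06 to 0.11 for Ece2 and -0.15 to 0.15 for Edn1 at 1 year, and with age in mutants from -0.21 to 0.02 for Ece2, -0.01 to 0.21 for Edn3 and -0.20 to 0.04 for Ece1. All endothelin probes were well above background on all arrays. Whether background limited these values was not tested beyond the normexp setting.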
